A study of Mus musculus with 8 samples.

Results

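The 10 genes described here act in metal binding and defence against oxidants, and their expression was followed in mouse neural stem cells (NSCs): the metallothioneins Mt1, Mt2 and Mt3, the antioxidant genes Hmox1, Nqo1, Gclc, Gclm, Txnrd1 and Srxn1, and Nfe2l2, which encodes the transcription factor NRF2. All probe sets annotated to 1 of these symbols alone were taken, which gave 19 of the 45101 probe sets of the array, and 14 of the 19, with at least 1 for each of the 10 genes, passed the filter on low signals (a signal of 50 on at least 2 of the 8 arrays). The NSCs were grown as secondary neurospheres, floating clusters formed again from dissociated primary neurospheres that had been raised with EGF and FGF-2. They were cultured for 3 or 7 days either in MHM + GF, a hormone-supplemented medium with the growth factors EGF and FGF-2, or in rcCHIL3, which is MHM conditioned by HEK293T cells, a human embryonic kidney line, transfected with Chil3 (also called ECF-L). The basal medium of both holds insulin, transferrin, progesterone, selenate and putrescine. Each of the 4 groups had 2 arrays from independent experiments. The labels place the cells in adult mouse brain, whereas the methods describe striatum of embryonic or adult forebrain. No array of rcCHIL3 with added growth factors and none of mock-conditioned medium was analysed here, so CHIL3 protein, the conditioning by HEK293T cells and the lack of added growth factors cannot be told apart.

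In cells under oxidative or electrophilic stress, NRF2 escapes its inhibitor KEAP1, enters the nucleus and binds antioxidant response elements (AREs) in genes for glutathione synthesis, quinone reduction, thioredoxin cycling and heme breakdown. Because NRF2 is controlled largely through protein stability, its mRNA level is not a measure of its activity. Metallothioneins are small cysteine-rich proteins that bind zinc and copper, and Mt1 and Mt2 are classically induced through metal response elements (MREs) by the zinc sensor MTF1, while Mt3 is known mainly from brain and responds little to metals. In the brain, glutathione synthesis and metallothioneins are prominent in astrocytes.

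Signals are linear array intensities after each array was rescaled to an average of 100, and a change is the difference of mean log2(signal + 20), given ± SE with 2 arrays in each group and an adjusted p from limma. The offset makes the change of a low signal smaller than its ratio of signals. The averages of the deposited signals lay between 267.3 and 316.6, and the arrays of a group correlated at 0.9917 to 0.9943. Of 10 neural stem and progenitor markers 9 were tested, of which 3 were higher and 4 lower in rcCHIL3 at 3 days and 0 were higher and 4 lower at 7 days. Sox2 had mean signals of 1945.7, 2055.2, 1727.7 and 1883.2 in MHM + GF at 3 and 7 days and rcCHIL3 at 3 and 7 days, and Egfr, the receptor of EGF, had 819.1, 800.2, 216.3 and 377.5. At 3 days Prom1 (263.1 against 369.2), Msi1 (212.3 against 304.4) and Pax6 (141.4 against 169.8) had higher means in rcCHIL3. Nes, the intermediate filament gene that defines neural progenitors, had a mean of 186.6 in MHM + GF at 3 days and of 29.9, 25.2 and 13.8 in MHM + GF at 7 days and rcCHIL3 at 3 and 7 days. Signals of the 8 microglial and 6 endothelial markers stayed at or under 40.6 and 30.9 on all arrays, and none of these 14 passed the filter. Astrocyte markers varied between the groups, with a summed signal of 6828 to 6884 in MHM + GF and 8681 to 8970 in rcCHIL3 at 3 days, and of 10552 to 10633 and 10709 to 11075 at 7 days. The 4 oligodendrocyte markers tested were all higher in rcCHIL3 at 3 days and 2 were at 7 days. Of 4 neuronal markers tested, 3 were higher and 1 lower at 3 days and 2 were lower at 7 days. Beside these marker counts, 2717 of all 8975 genes tested were higher and 1984 lower at 3 days, and 1958 higher and 2032 lower at 7 days. The part of these cell types in the results that follow was not tested. Since whole cultures were measured, a different share of such cells and a different amount of RNA per cell cannot be told apart.

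The antioxidant genes were higher in rcCHIL3 at both days, and the metallothioneins split by gene and day. At 3 days 11 of the 14 probe sets, belonging to 8 of the 10 genes, were higher in rcCHIL3 than in MHM + GF, 0 were lower and 3 did not pass the test. Over all 15679 probe sets tested, 27.7% were called higher and 22.5% lower in that comparison. At 7 days 11 of 14 were again higher, from 8 genes, and 0 were lower, against 21.3% higher and 22.7% lower over all probe sets. The members were chosen with earlier results of these data known, so the excess over all probe sets is a description and not a test. The median change of the 14 was 1.06 at 3 days and 0.47 at 7 days, and that of all probe sets was 0.03 and -0.01. MHM + GF at 3 days was the lowest group for 12 of the 14 probe sets, and rcCHIL3 at 7 days the highest for 8. The lowest and highest groups were not counted over all probe sets, so these counts do not set the members apart. Nqo1 passed the filter only through rcCHIL3 arrays and the Srxn1 probe set 1451680_at only through those at 7 days. A difference was therefore built into their selection.

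**Figure D1:**
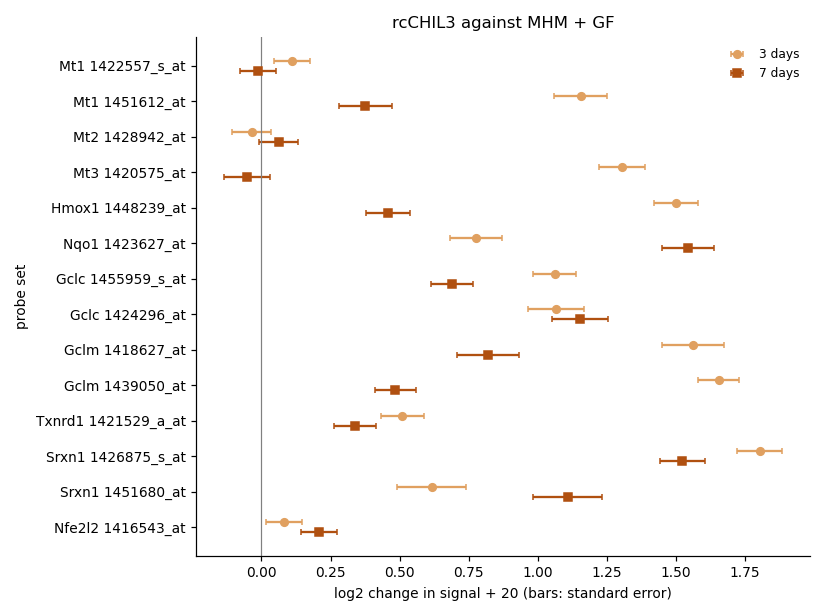
Change in rcCHIL3 against MHM + GF on the log2(signal + 20) scale for the 14 probe sets tested, at 3 days (circles) and 7 days (squares), with bars of 1 standard error from 2 arrays in each group. The Srxn1 probe set 1426875_s_at lies farthest right at 3 days (1.80), while Mt2 lies next to 0 at both days.

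Nfe2l2 itself differed little between the media. Its signals at 3 days were 328.9 and 345.4 in MHM + GF and 368.2 and 348.1 in rcCHIL3, and at 7 days 490.7 and 501.2 in MHM + GF and 570.0 and 582.6 in rcCHIL3. The groups did not overlap at either day, but the change was 0.08 ± 0.06 at 3 days (adjusted p = 0.31) and 0.21 ± 0.06 at 7 days (adjusted p = 0.021). The call at 7 days was lost when any 1 of the 4 arrays of that day was left out (adjusted p = 0.052 to 0.1) and on the deposited scale (adjusted p = 0.059). Nfe2l2 rose with time in both media, by 0.53 ± 0.06 in MHM + GF (adjusted p = 3.2e-05) and by 0.66 ± 0.06 in rcCHIL3 (adjusted p = 1.7e-05). A further probe set, 1457117_at, stayed under the filter with signals of 22.0 to 41.1 and was lower in rcCHIL3 at both days. It read 35.0 and 41.1 in MHM + GF against 34.5 and 31.0 in rcCHIL3 at 3 days. At 7 days it read 35.2 and 30.5 against 22.0 and 24.5.

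Glutathione synthesis begins with glutamate-cysteine ligase, whose catalytic subunit is encoded by Gclc and whose modifier subunit by Gclm, and both genes were higher in rcCHIL3 at both days. Gclm probe set 1439050_at read 82.9 and 76.8 in MHM + GF and 299.7 and 289.3 in rcCHIL3 at 3 days, then 217.1 and 221.2 in MHM + GF and 322.7 and 306.8 in rcCHIL3 at 7 days. The gap narrowed as the MHM + GF arrays rose, from 1.66 ± 0.07 (adjusted p = 1e-08) to 0.49 ± 0.07 (adjusted p = 0.00034). The other Gclm probe set, 1418627_at, gave 129.8 and 153.7 against 415.3 and 500.2 at 3 days (1.56 ± 0.11, adjusted p = 5.1e-07) and 282.7 and 229.8 against 472.1 and 457.9 at 7 days (0.82 ± 0.11, adjusted p = 0.00016). For Gclc the probe sets gave near-equal changes at 3 days and different ones at 7 days. Probe set 1455959_s_at read 147.4 and 151.3 in MHM + GF against 328.1 and 338.6 in rcCHIL3 at 3 days (1.06 ± 0.08, adjusted p = 5.3e-07) and 222.8 and 235.1 against 405.2 and 359.7 at 7 days (0.69 ± 0.08, adjusted p = 3.5e-05). Probe set 1424296_at read 143.5 and 160.1 against 329.0 and 350.2 at 3 days (1.07 ± 0.10, adjusted p = 4.7e-06) and 151.0 and 124.7 against 354.3 and 307.1 at 7 days (1.15 ± 0.10, adjusted p = 5.6e-06).

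Of the 10 genes, 8 have an entry in the RefSeq promoter table (assembly GRCm38.p6), with 10 start sites in all. The 250 bases before each start were searched on both strands for the ARE core TGACNNNGC, which 10.2% of all 32851 promoters hold, and for the MRE core, TGCACNC or TGCGCNC, which 21.4% hold. The ARE core was found once in each of Gclm, Mt2, Nfe2l2 and 1 of the 3 Txnrd1 windows. The Gclm window is shown because Gclm was higher in rcCHIL3 at both days and its window holds matches to both motifs. It lies on the plus strand of GRCm38.p6 at chr3:122245307-122245556, and capitals mark an ARE match on the opposite strand, whose first base is 134 bases before the start, with an overlapping MRE match 138 bases before it and a separate MRE match 72 bases before it.
Gclm: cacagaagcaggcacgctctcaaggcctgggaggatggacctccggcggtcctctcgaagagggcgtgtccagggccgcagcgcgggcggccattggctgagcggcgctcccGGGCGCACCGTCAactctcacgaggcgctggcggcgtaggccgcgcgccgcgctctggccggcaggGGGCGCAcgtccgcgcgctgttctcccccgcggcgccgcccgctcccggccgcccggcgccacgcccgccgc
A match describes letters in the window and not a bound site, and absence of a match says only that these letters are not in that window.

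Thioredoxin reductase, encoded by Txnrd1, returns thioredoxin to its reduced form with NADPH, and sulfiredoxin, encoded by Srxn1, repairs overoxidised peroxiredoxins. Srxn1 had the largest change of the 14 probe sets at 3 days. Its probe set 1426875_s_at read 37.0 and 37.1 in MHM + GF and 174.8 and 183.2 in rcCHIL3 at 3 days, a ratio of means of 4.84 (1.80 ± 0.08, adjusted p = 1.2e-08). At 7 days it read 83.2 and 83.8 in MHM + GF and 287.0 and 268.2 in rcCHIL3, a ratio of 3.32 (1.52 ± 0.08, adjusted p = 1.5e-07). Signals thus climbed from MHM + GF at 3 days through MHM + GF at 7 days and rcCHIL3 at 3 days to rcCHIL3 at 7 days with no overlap between any of the groups. The dim probe set 1451680_at read 10.5 and 12.3 against 31.4 and 25.0 at 3 days and 22.0 and 13.3 against 62.3 and 59.1 at 7 days (0.62 ± 0.13, adjusted p = 0.0017, and 1.11 ± 0.13, adjusted p = 4.3e-05). Under the filter, 1425351_at read 7.8 to 10.8 on the MHM + GF arrays and 31.5 to 37.4 on the rcCHIL3 arrays, and 1419942_at read 2.3 to 21.9 without that separation.

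Txnrd1 was higher in rcCHIL3 by a smaller factor, 1.44 at 3 days and 1.28 at 7 days. Probe set 1421529_a_at read 442.1 and 414.1 in MHM + GF against 627.1 and 608.5 in rcCHIL3 at 3 days (0.51 ± 0.08, adjusted p = 0.00021). At 7 days it read 452.2 and 409.5 against 583.5 and 517.3 (0.34 ± 0.08, adjusted p = 0.0045). The media did not overlap at either day, and the changes with time in MHM + GF and rcCHIL3 did not pass the test (0.01 ± 0.08, adjusted p = 0.94, and -0.16 ± 0.08, adjusted p = 0.12). Both other Txnrd1 probe sets stayed at or under 17.5 on all arrays.

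Nqo1, whose product reduces quinones by 2 electrons at once, had an excess in rcCHIL3 that grew with time. Its signals were 34.8 and 35.7 in MHM + GF at 3 days and 36.1 and 38.3 at 7 days, all under the filter value of 50. In rcCHIL3 they were 78.7 and 70.7 at 3 days and 150.5 and 143.1 at 7 days. The change with time was 0.05 ± 0.09 in MHM + GF (adjusted p = 0.67) and a rise of 0.82 ± 0.09 in rcCHIL3 (adjusted p = 5.2e-05), so the difference between the media went from 0.78 ± 0.09 (adjusted p = 3.3e-05) to 1.54 ± 0.09 (adjusted p = 3.3e-07). The increase of that difference was 0.77 ± 0.13 (adjusted p = 0.00078).

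Hmox1, the inducible heme oxygenase that breaks heme down to biliverdin, iron and carbon monoxide, ran the other way. It read 72.9 and 76.2 in MHM + GF and 246.6 and 248.7 in rcCHIL3 at 3 days, and 100.1 and 96.3 in MHM + GF and 145.3 and 139.2 in rcCHIL3 at 7 days. Hmox1 was highest in rcCHIL3 at 3 days, at 3.32 times its control mean (1.50 ± 0.08, adjusted p = 4e-08), and still 1.45 times its control at 7 days (0.46 ± 0.08, adjusted p = 0.0008). Within rcCHIL3 it fell by 0.72 ± 0.08 on the log2 scale between the days (adjusted p = 3.9e-05), the one fall with time among the 14 probe sets that passed the test.

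**Figure D2:**
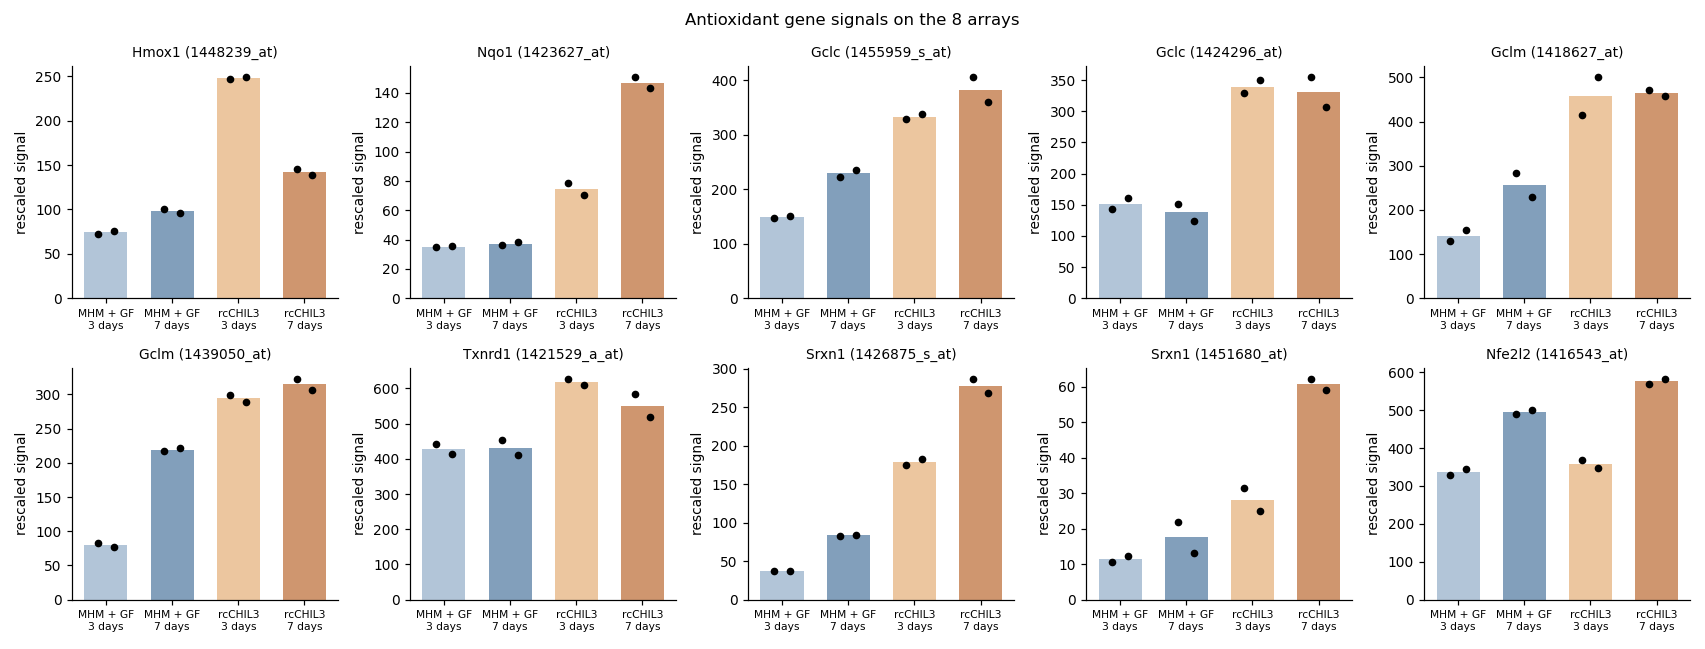
Rescaled signal (linear, from 0) of the 10 tested probe sets of the antioxidant genes and Nfe2l2 in the 4 groups; bars are group means and points the 2 arrays. Nqo1 is under 50 on all 4 MHM + GF arrays, and Hmox1 peaks in rcCHIL3 at 3 days.

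The metallothionein genes lie next to one another on chromosome 8, in the order Mt4, Mt3, the lncRNA gene Gm39227, Mt2 and Mt1, yet their signals did not move together. Mt3 read 388.5 and 451.4 in MHM + GF and 1136.2 and 998.7 in rcCHIL3 at 3 days. At 7 days it read 1277.5 and 1209.6 in MHM + GF and 1165.0 and 1234.1 in rcCHIL3. The single low group was therefore MHM + GF at 3 days, with a change between the media of 1.31 ± 0.08 at 3 days (adjusted p = 1.9e-07) and -0.05 ± 0.08 at 7 days (adjusted p = 0.65), where the groups overlapped. The markers of astrocytes did not share 1 pattern. Aqp4, a water channel of astrocyte endfeet, had mean signals of 727.5, 2079.0, 1966.2 and 2089.5 in MHM + GF at 3 and 7 days and rcCHIL3 at 3 and 7 days, and Gfap, an intermediate filament of astrocytes, had 52.0, 1144.8, 910.0 and 1546.2, both lowest where Mt3 was lowest. Aldh1l1, a folate enzyme of astrocytes, was highest there, with means of 997.8, 651.6, 409.2 and 439.9 in the same order, and the means of Slc1a3 and Aldoc at 3 days were 1351.1 and 1666.9 in MHM + GF against 1028.7 and 1242.3 in rcCHIL3. Of the 9 astrocyte markers tested, 5 were higher and 3 lower in rcCHIL3 at 3 days, and 4 higher and 2 lower at 7 days. Among all 8975 genes tested, 2717 were higher and 1984 lower at 3 days, and 1958 higher and 2032 lower at 7 days. 

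Mt2 rose with time in both media and did not pass the test between them. It read 1558.1 and 1760.1 in MHM + GF against 1640.9 and 1589.1 in rcCHIL3 at 3 days and 2230.7 and 2360.0 against 2309.9 and 2488.7 at 7 days, with overlap at both days. The medium changes were -0.04 ± 0.07 (adjusted p = 0.7) and 0.06 ± 0.07 (adjusted p = 0.49), and the rise with time was 0.47 ± 0.07 in MHM + GF (adjusted p = 0.00018) and 0.56 ± 0.07 in rcCHIL3 (adjusted p = 9.7e-05). After quantile normalization the medium change at 7 days was 0.18 and passed the test (adjusted p = 0.018).

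The probe sets of Mt1 disagreed at 3 days in the size of the change. Probe set 1422557_s_at read 2444.6 and 2452.7 in MHM + GF and 2575.2 and 2715.8 in rcCHIL3 at 3 days (0.11 ± 0.06, adjusted p = 0.18), and 3052.2 and 3102.9 against 2874.0 and 3237.3 at 7 days (-0.01 ± 0.06, adjusted p = 0.89). These signals lie near the top of the scale, where the brightest probe set of an array read 3372 to 3875, and whether that narrows the ratio was not tested. Quantile normalization gave a change of 0.22 at 3 days that passed the test (adjusted p = 0.001). The dimmer probe set 1451612_at read 99.1 and 87.8 against 232.0 and 233.0 at 3 days (1.16 ± 0.10, adjusted p = 1.6e-06) and 141.9 and 164.4 against 218.2 and 191.2 at 7 days (0.38 ± 0.10, adjusted p = 0.0082). Its call at 7 days was lost without MHM + GF replicate 1 (adjusted p = 0.064) or without rcCHIL3 replicate 1 (adjusted p = 0.074). Both probe sets lay higher in rcCHIL3 at 3 days, but they differed in the size of the change and in whether it passed the test.

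**Figure D3:**
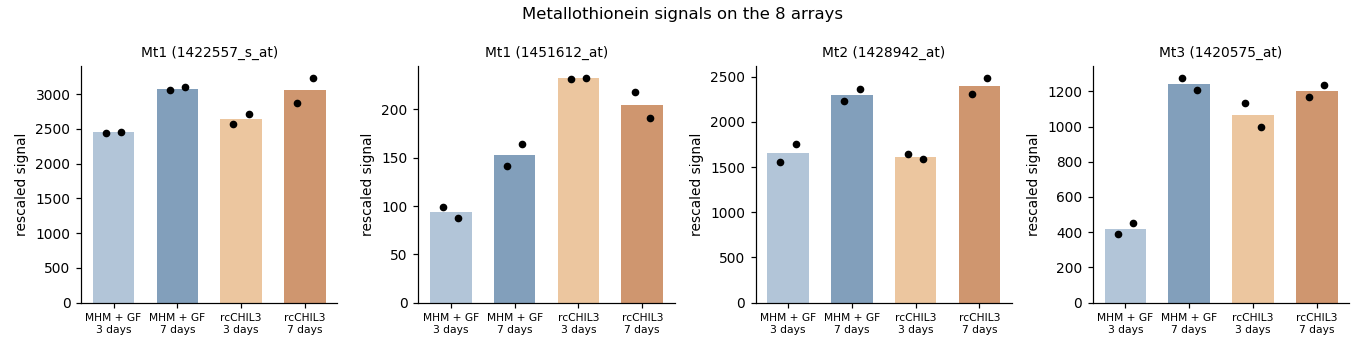
Rescaled signal (linear, from 0) of the 4 tested metallothionein probe sets in the 4 groups; bars are group means and points the 2 arrays. Mt3 is low in MHM + GF at 3 days alone (388.5 and 451.4), whereas Mt2 is higher at 7 than at 3 days in both media.

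The windows before Mt2 and Mt3 are shown because these neighbours differed in response and in motif content. Whether the motifs have a part in the response was not tested. Mt2 lies on the plus strand (GRCm38.p6, chr8:94172368-94172617), and capitals mark MRE matches starting 223, 128 and 50 bases before the start and an ARE match starting 79 bases before it, with no overlap between them.
Mt2: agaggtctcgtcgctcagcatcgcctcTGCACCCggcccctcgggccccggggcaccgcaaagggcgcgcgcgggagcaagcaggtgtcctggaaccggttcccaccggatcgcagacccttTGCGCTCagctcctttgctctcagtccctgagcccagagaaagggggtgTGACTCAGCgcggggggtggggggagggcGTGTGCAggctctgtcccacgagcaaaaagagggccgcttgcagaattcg
The Mt3 window (plus strand, chr8:94152357-94152606) holds no match to either motif and so has no capitals.
Mt3: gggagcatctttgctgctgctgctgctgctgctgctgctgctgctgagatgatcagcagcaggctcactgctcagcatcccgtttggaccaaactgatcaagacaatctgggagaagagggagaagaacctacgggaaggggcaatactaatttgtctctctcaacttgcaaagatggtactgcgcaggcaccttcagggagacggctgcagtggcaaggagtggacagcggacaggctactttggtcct
The Mt1 window (chr8:94178839-94179088) held 1 MRE match, 23 bases before the start, and no ARE match. Srxn1 held 1 MRE match and Nqo1 matched neither motif.

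With time, the members rose mostly in MHM + GF. Between 3 and 7 days in MHM + GF 10 of the 14 probe sets, from 8 genes, rose and 0 fell, against 31.1% of all probe sets higher and 26.0% lower, with a median change of 0.50. Mt3 (1.53 ± 0.08, adjusted p = 5.4e-08), Gclm 1439050_at (1.26 ± 0.07, adjusted p = 8.8e-08) and Srxn1 1426875_s_at (0.86 ± 0.08, adjusted p = 4.7e-06) rose most. In rcCHIL3 6 rose, 1 fell and 7 did not pass the test, against 18.0% higher and 17.9% lower over all probe sets. Of the 6 that rose in rcCHIL3, Srxn1 1451680_at passed the filter only through the rcCHIL3 arrays at 7 days. A rise with time in rcCHIL3 was therefore built into its selection. Those that rose there were Nqo1, both Srxn1 probe sets, Nfe2l2, Mt2 and Mt1 1422557_s_at, the last by 0.20 ± 0.06 (adjusted p = 0.029), a call lost under 9 alternatives. These were the fits without rcCHIL3 3-day replicate 1 (adjusted p = 0.18) or 2 (adjusted p = 0.063) and without rcCHIL3 7-day replicate 2 (adjusted p = 0.2), median centring (adjusted p = 0.11), no filter (adjusted p = 0.099), a fit without the trend (adjusted p = 0.08), the compared groups alone (adjusted p = 0.055), and the methods' test before and after adjustment. These comparisons use the same arrays as those between the media.

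**Figure D4:**
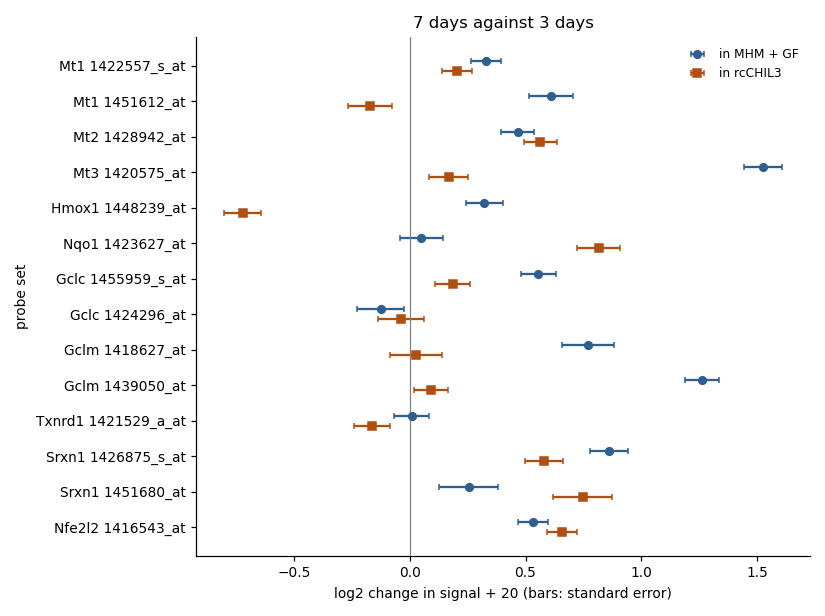
Change from 3 to 7 days on the log2(signal + 20) scale for the 14 probe sets tested, in MHM + GF (circles) and rcCHIL3 (squares), with bars of 1 standard error from 2 arrays in each group. Hmox1 rises by 0.32 in MHM + GF and changes by -0.72 in rcCHIL3, and Nqo1 rises by 0.82 in rcCHIL3.

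The difference between the media was itself compared between the days. It was smaller at 7 days for 6 of the 14 probe sets, larger for 2 and not called for 6, while over all probe sets 22.7% were called in the direction of a smaller and 18.7% of a larger value. The 6 were Mt3 (-1.36 ± 0.12, adjusted p = 5.5e-06), both Gclm probe sets (-1.17 ± 0.10, adjusted p = 6.6e-06, and -0.74 ± 0.16, adjusted p = 0.0032), Hmox1 (-1.04 ± 0.11, adjusted p = 2.6e-05), Mt1 1451612_at (-0.78 ± 0.14, adjusted p = 0.00084) and Gclc 1455959_s_at (-0.37 ± 0.11, adjusted p = 0.018). The 2 that grew passed the filter only through rcCHIL3 arrays, 1 of them through those at 7 days alone, so a difference was built into their selection. They were Nqo1 and, passing at 7 days alone, Srxn1 1451680_at (0.49 ± 0.18, adjusted p = 0.045). The last call was lost without MHM + GF 3-day replicate 1 (adjusted p = 0.069) or 2 (adjusted p = 0.12), without MHM + GF 7-day replicate 2 (adjusted p = 0.16) and without rcCHIL3 3-day replicate 2 (adjusted p = 0.15). The Gclc call was lost without replicate 2 of MHM + GF at 7 days (adjusted p = 0.051), of rcCHIL3 at 3 days (adjusted p = 0.064) or of rcCHIL3 at 7 days (adjusted p = 0.077).

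Further genes commonly listed as NRF2 targets were compared in the same fit, each by its brightest probe set. Of 37 such genes 21 were tested, and 12 were higher and 4 lower in rcCHIL3 at 3 days (median 0.51), with 14 higher and 2 lower at 7 days (median 0.44). Over all 8975 genes tested, 2717 were higher and 1984 lower at 3 days, and 1958 higher and 2032 lower at 7 days. This list and those that follow were chosen with earlier results of these data known, so their counts describe and do not test. The glutathione transferase gene Gsta2 read 4.3 and 4.9 in MHM + GF and 181.3 and 190.2 in rcCHIL3 at 3 days (3.06 ± 0.10, adjusted p = 1.1e-09), and 41.7 and 39.4 against 86.6 and 101.7 at 7 days (0.91 ± 0.10, adjusted p = 3.1e-05). It passed the filter only through the rcCHIL3 arrays. Probes for glutathione transferases of 1 family can share sequence, and its relative Gsta1 had no probe set named alone, so this signal may not be of Gsta2 alone. Abcc4, an efflux pump for conjugates, and Blvrb, a flavin and biliverdin reductase, were higher by 1.68 ± 0.08 and 1.57 ± 0.08 at 3 days (adjusted p = 1.3e-08 and 2.8e-08) and by 0.66 and 0.59 at 7 days. Slc7a11, the cystine importer that feeds glutathione synthesis, was higher by 0.98 ± 0.10 at 3 days (adjusted p = 6.2e-06) and 0.57 ± 0.10 at 7 days (adjusted p = 0.00066), and it passed the filter only through the rcCHIL3 arrays at 3 days. Me1, which makes NADPH from malate, changed by -0.09 ± 0.07 at 3 days (adjusted p = 0.37) and was 1.28 ± 0.07 higher at 7 days (adjusted p = 2.7e-07). Thioredoxin itself, Txn1, and the carbonyl reductase gene Cbr3 were lower at 3 days, both with a change of -0.87 (adjusted p = 1.1e-06 and 7.3e-05).

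**Figure D5:**
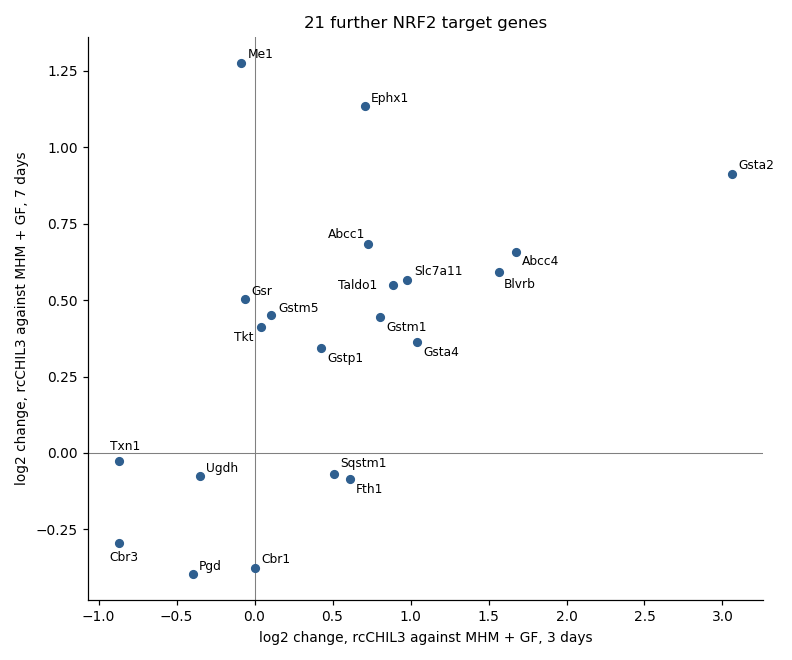
Change in rcCHIL3 against MHM + GF on the log2(signal + 20) scale at 3 days (horizontal) and at 7 days (vertical) for the 21 further NRF2 target genes tested, 1 point per gene. Gsta2 stands at the far right (3.06 at 3 days), and Me1 stands high at 7 days alone (1.28).

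Of the 10 tested genes that control NRF2 or share its sites, 7 were higher and 1 lower at 3 days. At 7 days 2 were higher and 4 lower. Among all 8975 genes tested, 2717 were higher and 1984 lower at 3 days, and 1958 higher and 2032 lower at 7 days. Mafg, a small MAF partner of NRF2, was 1.12 ± 0.09 higher at 3 days (adjusted p = 1.4e-06) and changed by 0.02 ± 0.09 at 7 days (adjusted p = 0.88). Keap1 was 0.29 ± 0.08 higher at 3 days (adjusted p = 0.012), with 0.15 ± 0.08 at 7 days (adjusted p = 0.15). Bach1, a repressor that competes for AREs, read 304.2 and 287.5 against 353.3 and 352.1 at 3 days (0.24, adjusted p = 0.011) and 415.8 and 432.0 against 293.8 and 282.2 at 7 days (-0.53, adjusted p = 9e-05). The kinase gene Fyn was higher at 3 days (0.57) and lower at 7 days (-0.33), and the kinase gene Gsk3b was lower at both (-0.23 and -0.26). Maff, a further small MAF, was higher at both days (0.37 and 0.58), and Btrc, a ubiquitin ligase subunit, was higher at 3 days (0.46) and lower at 7 days (-0.57), and it passed the filter only through arrays of the higher group of each day.

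In zinc and copper handling 10 genes of 18 tested were higher and 1 lower at 3 days, and 7 higher and 2 lower at 7 days. The median change was 0.30 at 3 days and 0.07 at 7 days. Of all 8975 genes tested, 2717 were higher and 1984 lower at 3 days, and 1958 higher and 2032 lower at 7 days. Slc30a1, a zinc exporter that is itself an MTF1 target, read 142.5 and 167.1 in MHM + GF against 253.2 and 229.9 in rcCHIL3 at 3 days (0.58 ± 0.09, adjusted p = 0.00018) and 146.1 and 148.6 against 243.4 and 248.5 at 7 days (0.67 ± 0.09, adjusted p = 0.00011). Mtf1 was 0.45 ± 0.10 higher at 3 days (adjusted p = 0.0023), with 0.06 ± 0.10 at 7 days (adjusted p = 0.65). Slc30a10, a manganese exporter, was lower at both days (-1.02, adjusted p = 6.7e-06, and -0.88, adjusted p = 4.5e-05), but it passed the filter only through MHM + GF arrays, so a lower value in rcCHIL3 was built into its selection. The zinc importer gene Slc39a14 was higher at 3 days (0.53), and Slc30a6 (0.56), Slc30a9 (0.53) and the copper importer gene Slc31a1 (0.53) were higher at 7 days.

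Other peroxide, superoxide and thiol enzymes were mixed. Of 20 tested, 9 were higher and 7 lower at 3 days, and 9 higher and 3 lower at 7 days. Among all 8975 genes tested, 2717 were higher and 1984 lower at 3 days, and 1958 higher and 2032 lower at 7 days. Gpx3, the extracellular glutathione peroxidase, read 82.1 and 56.4 in MHM + GF against 2.4 and 2.4 in rcCHIL3 at 3 days (-1.98 ± 0.14, adjusted p = 3.5e-07) and passed the filter only through those control arrays. At 7 days all its signals were at or under 20.6. Gpx7 and Txnip, the latter an inhibitor of thioredoxin, were also lower at 3 days (-1.73 and -0.96), and Txnrd3 was higher (0.70). At 7 days the mitochondrial peroxiredoxin gene Prdx3 (0.80) and the glutaredoxin gene Glrx (0.69) were higher. Glrx had been lower in rcCHIL3 at 3 days (-0.54 ± 0.08, adjusted p = 0.00013), while Prdx3 did not pass the test then (-0.08 ± 0.08, adjusted p = 0.41).

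Of 13 other glutathione genes tested, 5 were higher and 5 lower at 3 days, and 6 were higher and 0 lower at 7 days. Beside them, 2717 of all 8975 genes tested were higher and 1984 lower at 3 days, and 1958 higher and 2032 lower at 7 days. The transferase gene Gstt1 read 134.4 and 128.8 in MHM + GF against 21.0 and 24.1 in rcCHIL3 at 3 days (-1.83 ± 0.10, adjusted p = 4.2e-08) and read 44.9 and 49.2 against 52.1 and 46.8 at 7 days (0.05 ± 0.10, adjusted p = 0.7). Apart from the rcCHIL3 array of 52.1 at 7 days, Gstt1 reached the filter value only on the MHM + GF arrays at 3 days. A lower value in rcCHIL3 at 3 days was therefore built into its selection. Oplah (0.85) and Gsto1 (0.67) were higher and Gstk1 (-0.68) lower at 3 days, and Gstm7 (0.79) and Ggct (0.61) were higher at 7 days. Probes for glutathione transferases of 1 family can share sequence, so their signals may not be of 1 gene alone.

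Among heme and iron genes 6 of 17 tested were higher and 1 lower at 3 days, and 8 higher and 2 lower at 7 days. Of all 8975 genes tested, 2717 were higher and 1984 lower at 3 days, and 1958 higher and 2032 lower at 7 days. Alas1, the first enzyme of heme synthesis, was 0.82 ± 0.07 higher at 3 days (adjusted p = 2.6e-06), beside the heme transporter genes Slc48a1 (1.26) and Flvcr1 (0.94). Hmox2, the constitutive partner of Hmox1, changed by -0.31 ± 0.07 at 3 days (adjusted p = 0.0043) and by 0.00 ± 0.07 at 7 days (adjusted p = 0.97). Tfrc, the transferrin receptor, read 243.8 and 261.4 in MHM + GF against 887.8 and 889.1 in rcCHIL3 at 7 days (1.74 ± 0.06, adjusted p = 1.3e-08), with -0.04 ± 0.06 at 3 days (adjusted p = 0.61), and Ppox was lower at 7 days (-0.49, adjusted p = 0.021).

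Genes whose pattern over the 4 groups lay closest to a member were found by the largest difference between log2 group means, each centred on its own average, over all tested probe sets with 1 symbol. Closest to Hmox1 were Chn2 (0.10), Map1b (0.12) and Dock9 (0.13). For Nqo1 they were Acot11 (0.08), Afap1l1 (0.12) and Daam2 (0.15), and for Gclm 1418627_at Plekha6 (0.09), S100b (0.10) and Col9a3 (0.12). For Srxn1 1426875_s_at they were Gas6 (0.11), Epas1 (0.15) and Lhfpl2 (0.18), and for Mt1 1422557_s_at 1500011B03Rik (0.01), Tspan3 (0.02) and Smyd4 (0.02). These are descriptions over 4 group means from the same 8 arrays.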

How the data were processed

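RNA of NSCs from the 4 groups, 2 arrays each, was hybridized to Affymetrix mouse genome arrays. The deposited files hold 1 signal intensity per probe set on a linear scale, which the authors obtained by MAS5 in Affymetrix Expression Console 1.1 (per the labels) with global scaling. The average signal named in the methods was not that of the deposited values, so each array was rescaled to an average of 100. Array precision is limited by the 2 arrays in a group.

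Values were compared as log2(signal + 20). Of 45101 probe sets, 64 are array controls and were left out, and the 15679 with a signal of at least 50 on 2 or more of 8 arrays were tested. Of all probe sets other than controls, 34945 have 1 gene symbol in the platform annotation, 932 several and 9160 none, and genes were named only from 1 symbol. In R 4.3.3, limma 3.58.1 fitted 1 mean per group to all 8 arrays, with variances moderated by eBayes along an intensity trend (4 degrees of freedom left, two-sided, Benjamini-Hochberg over all tested probe sets, threshold 0.05). Values of probe sets under the filter are signals only. Python 3.11.15 with numpy 2.4.6, matplotlib 3.10.9 and pandas 2.3.3 was used for tables and figures. The fit was tested on simulated data.

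Array numbers were not used to pair the samples in the main fit. The deviations of same-numbered arrays from group means correlated at -0.0106 to 0.1021, which does not exclude that they share an experiment. The members and gene lists were chosen with earlier results of these data known. From each list the text names up to 4 genes past the threshold with the largest change whose 4 array pairs agree in sign, at most 2 that moved oppositely, and Keap1, Bach1, Mtf1, Slc30a1 and Slc7a11. Alternatives were an offset of 50, a floor of 10 with no offset, no filter, a filter of 100, the deposited scale, median centring, quantile normalization, the replicate block, other forms of the fit, the second brightest probe set of a gene, the methods' t-test and leaving out each array.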

Additional observations from a re-analysis of the deposited data

Results flagged for a closer look

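The change between rcCHIL3 and MHM + GF differed between 7 and 3 days for 8 probe sets by a test of the difference itself (limma, 4 residual degrees of freedom). It was smaller at 7 days for Mt1 1451612_at (-0.78), Mt3 (-1.36), Hmox1 (-1.04), Gclc 1455959_s_at (-0.37), Gclm 1418627_at (-0.74) and Gclm 1439050_at (-1.17). It was larger at 7 days for Nqo1 (0.77) and Srxn1 1451680_at (0.49). Both passed the filter only through rcCHIL3 arrays, Srxn1 1451680_at through those at 7 days alone. Over all 15679 probe sets tested, 22.7% were called in the direction of a smaller and 18.7% of a larger value. The second Gclc probe set gave 0.09 ± 0.14 (adjusted p = 0.65), so the probe sets of Gclc did not both pass. Groups of 2 arrays were too small for a search for single deviating arrays.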

How the results depend on the processing

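Of 1413 recomputed changes of member probe sets, 1336 kept their direction and side of the threshold, 55 were no longer past it, 5 came past it and 17 changed sign. All 17 were small changes past the threshold neither before nor after. Between the media, Mt2 at 3 days became 0.014 under quantile normalization and ran from -0.12 to 0.051 when an array was left out. At 7 days Mt1 1422557_s_at became 0.085 on the deposited scale and 0.10 under quantile normalization, with -0.098 to 0.073 when an array was left out, and Mt3 became 0.046 on the deposited scale. Over time in MHM + GF, Txnrd1 became -0.061 on the deposited scale and -0.019 with median centring, with -0.061 to 0.076 when an array was left out. Over time in rcCHIL3, Gclc 1424296_at became 0.062 on the deposited scale, with -0.14 to 0.058 when an array was left out, and Gclm 1418627_at ran from -0.10 to 0.16. The difference of effects became 0.050 for Mt1 1422557_s_at on the deposited scale and ran from -0.033 to 0.21 for Gclc 1424296_at when an array was left out. Leaving out each array in turn left 10 to 11 members higher at 3 days, 8 to 11 at 7 days, 10 to 11 risen in MHM + GF and 4 to 6 in rcCHIL3, with 0 lower at either day. The difference of effects was then larger for 1 to 2 members and smaller for 5 to 6. It was larger for 1 on the deposited scale, with a filter of 100, with no filter and with a floor of 10. Among the NRF2 targets, 0 were lower at 7 days on the deposited scale in place of 2. On that scale 6 zinc and copper genes in place of 10 and 5 peroxide and thiol genes in place of 9 were higher at 3 days, and 2 NRF2 control genes in place of 4 were lower at 7 days, as also with the second brightest probe set of each gene. The methods' t-test, unadjusted, called 11 members higher at 3 days, 9 at 7 days, 10 risen in MHM + GF and 5 risen and 1 fallen in rcCHIL3. After Benjamini-Hochberg it called 7, 0, 6, 0 and 0. The replicate block groups the samples by array number. With it, the counts of members higher at each day stayed 11 and 11, and those risen in MHM + GF 10. Those risen and fallen in rcCHIL3 stayed 6 and 1, and those larger and smaller at 7 days 2 and 6. The cause of these differences was not tested. With 2 arrays in a group, p-values rest on a spread shared by all groups.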
